A study of Gallus gallus with 6 samples.

Results

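The cytosolic ribosomal protein genes were examined across frontonasal and somite tissue of the chicken embryo. The set held every gene whose symbol is RPL or RPS followed by a number and at most 1 letter or X, so that the ribosomal S6 kinase genes stayed out. It came to 65 of the 16828 genes in the gene files, 38 for proteins of the large subunit and 27 for proteins of the small subunit. The symbol alone chose the members, and no measured value entered the choice.

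A cytosolic ribosome joins a small subunit, which reads the messenger RNA, to a large subunit, which forms the peptide bond. Nearly every ribosomal protein is present once in each ribosome, and the messenger RNAs of these proteins carry a shared terminal oligopyrimidine start through which their translation is controlled together. In embryos, ribosomal protein messenger RNA is a large part of the message pool of growing cells, and loss of single members gives tissue-limited phenotypes, such as the axial skeletal defects of mouse Rpl38 mutants and the anaemia linked to human RPS19.

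The study asked how skeletogenic cells arise in different embryonic locations. Each library was 10x Genomics Chromium 3' single-cell RNA-sequencing of cells freed with trypsin from wild-type tissue of several embryos pooled at 1 Hamburger-Hamilton (HH) stage, with both sexes included. The nasal libraries came from the frontonasal prominence at HH15, HH18 and HH22, and the somite libraries from the dorsal brachial trunk at HH12, HH15 and HH20. Each stage of a location gave 1 library, so the 3 stages of a location stood as its replicates, the spread between them includes the stage, and location and dissected region cannot be told apart. Values for 6 libraries are given below in the order nasal HH15, HH18 and HH22, then somite HH12, HH15 and HH20.

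The files held 17268 barcodes, of which 16304 remained as cells after filters and a doublet score. Libraries held between 7702531 and 16725073 unique molecular identifiers (UMIs, 1 for each captured transcript molecule), with 1352 to 4469 cells and medians of 2230 to 3444.5 UMIs per cell. The 15 pairs of libraries shared 2 to 22 barcode sequences. Cells were put into classes by 1 class gene. PDGFRA marked mesenchyme, NKX3-2 sclerotome, FABP7 neural progenitors, ELAVL4 neurons, EPCAM epithelium, SOX10 neural crest and CDH5 endothelium, and cells with hemoglobin over 20% of their UMIs formed the blood class. A cell with UMIs of several class genes was left out, save for a few stated pairs, and 6813 cells had no class.

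Most marker lists were highest in the class they mark, but the neural progenitor list stood at 97.5 in FABP7 cells and 103 in ELAVL4 cells. Summed over each list and scaled to a common total of UMIs as CPM, the neural crest list reached 262 in SOX10 cells against 3.71 in PDGFRA cells, the endothelial list 287 in CDH5 cells against 1.66, and the sclerotome list 210.5 in NKX3-2 cells against 41.9. The neuronal list stood at 812 CPM in ELAVL4 cells, 252 in EPCAM cells, 211 in FABP7 cells and 49.97 in PDGFRA cells. The epithelial list averaged 564 CPM in EPCAM cells, against 155 in FABP7, 141 in ELAVL4 and 124 in PDGFRA cells. By library, its lowest value in EPCAM cells was 418 CPM, while it reached 450 CPM in FABP7, 414 in ELAVL4 and 372 in PDGFRA cells. The classes were less clean where a class gene was widespread. FABP7 had a UMI in 43.2% of the 417 blood cells and in 56.5% of the other cells, at medians of 8105 and 2749 UMIs, so a UMI of FABP7 alone is weak evidence of a cell's type, and the mesenchymal list stood at 171 CPM in FABP7 cells against 369 in PDGFRA cells. For PDGFRA the shares were 1.199% and 7.87%, and for EPCAM 0.719% and 7.22%. The gene labelled ALAS2, a name used for the heme enzyme of red cells, stood at 1.45 CPM in the blood class and at 25.7 CPM in PDGFRA cells. Whether the label or its annotated 3' end is right in these files was not tested, and the blood class rests on hemoglobin alone.

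Ribosomal protein genes took 26.8% of all UMIs in cells. By library the pooled share was 26.4%, 26.1%, 24.7%, 28.2%, 27.3% and 28.2%, and no Wilson 95% interval was wider than 0.0693 percentage points. Such intervals, here and below, cover counting error only. All 3 somite libraries lay above all 3 nasal libraries. The means were 25.7% ± 0.903 for nasal and 27.9% ± 0.481 for somite (SD, n = 3), and since the share is a score over the set it was given no test.

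The order of the libraries depended on blood. Nasal HH22 held 153 blood cells and somite HH20 held 102, against 1 in somite HH12. Outside the blood class the pooled share was 26.6%, 26.6%, 29.7%, 28.2%, 27.6% and 30.2%, so that the oldest library of each location was then its highest and the locations overlapped. The means became 27.6% ± 1.78 for nasal and 28.7% ± 1.34 for somite (SD, n = 3). With hemoglobin UMIs left out of the total, the share in all cells was 26.8%, 26.8%, 31.0%, 28.2%, 27.7% and 30.8%, again highest at nasal HH22 and somite HH20.

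**Figure D1:**
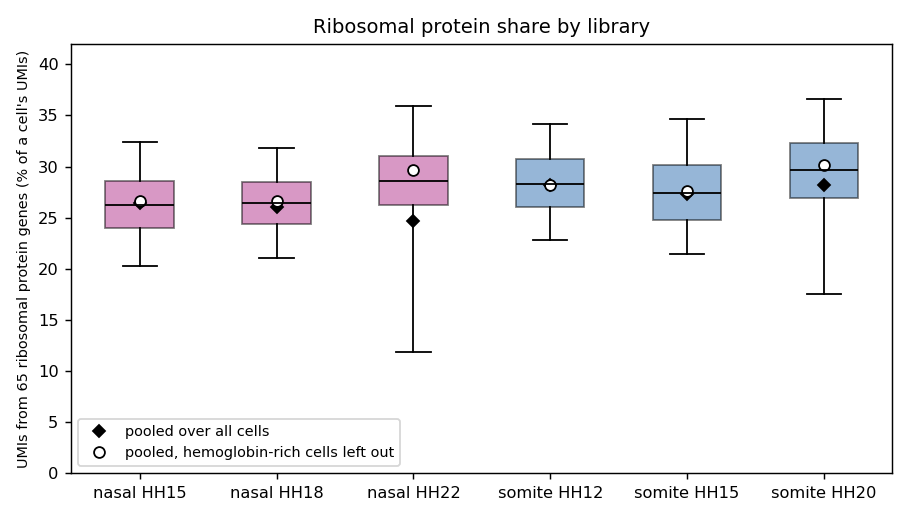
Share of a cell's UMIs in the 65 ribosomal protein genes (percent, vertical axis) for the 6 libraries (horizontal axis); boxes give the quartiles and median over cells, whiskers the central 90% of cells, diamonds the share pooled over all cells and open circles the share pooled without blood. The diamonds lie between 24.7% and 28.2%, and the open circles are highest in nasal HH22 and somite HH20 at 29.7% and 30.2%.

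Within the set, UMIs were spread widely. The 24 most abundant members held 50% of the ribosomal UMIs, 60 members were above 1000 CPM on average, and the median member stood at 4262 CPM. The counts are of 3' ends, so a level is in molecules and needs no correction for length. RPL32, of the large subunit, led at a mean of 7823 CPM and RPS23, RPL23, RPS19 and RPL37 were also among the most abundant, at 7409, 7098, 7030 and 6748 CPM. The small subunit took 40.8% of the ribosomal UMIs, between 39.7% and 42.4% by library.

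The lower members spread over a wide range. RPL5, which binds 5S ribosomal RNA together with RPL11, averaged 1721 CPM and RPS2, at the messenger RNA entry of the small subunit, 1130 CPM. RPS27L, a paralog of RPS27 that is p53-inducible in human cells, averaged 203 CPM. RPL26 averaged 78.3 CPM, while its near-identical copy RPL26L1, which the symbol rule leaves out, averaged 5457 CPM, so the counts of the pair are uncertain. RPS28 averaged 9.88 CPM and RPL3L, a muscle paralog of RPL3 in mammals, 0.698 CPM. RPL3L was in no test, and RPS28 passed the filter on low counts in some tests only.

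Most members kept similar proportions from library to library. To set blood and mitochondrial content aside, these proportions were read in non-blood cells with at least 3% of their UMIs in mitochondrial genes. There the ratio of a member's highest to its lowest share of ribosomal UMIs had a median of 1.27 over the set, 15 members stayed under 1.2, and 9 exceeded 1.5. The widest among members above 50 CPM was RPS29, a zinc-binding protein in the head of the small subunit, whose share was 1.93%, 1.30%, 3.56%, 2.77%, 1.59% and 3.13%. It was high in nasal HH22, somite HH12 and somite HH20 and low in the other 3 libraries. Each location held high and low libraries. Both HH15 libraries were low, and the oldest library of each location was its highest, without a steady rise over the stages. RPS27A, made as a fusion with ubiquitin, varied 2.66-fold, RPL38 2.52-fold, RPS21 1.72-fold and RPL29 1.65-fold. The part that library preparation has in these differences was not tested, since each stage gave 1 library.

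The share differed little among most classes and was lowest in blood. In PDGFRA cells, the median share per cell was 25.1%, 26.5%, 28.5%, 29.1%, 28.7% and 31.4%. In FABP7 cells, it was 26.5%, 26.2%, 29.3%, 27.7%, 26.9% and 30.1%. In ELAVL4 cells, it was 27.1%, 26.4%, 28.6%, 27.9%, 27.8% and 28.8%. The 3 classes overlapped throughout, and the library moved the share more than the class did. Against PDGFRA cells of the same library the mean difference was -0.437 percentage points for FABP7 cells (SD 1.33, n = 6, higher in 2 libraries) and -0.454 for ELAVL4 cells (SD 1.54, n = 6, higher in 2 libraries).

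The smaller classes were compared in libraries with at least 20 of their cells. EPCAM cells were above PDGFRA cells in 4 of 4 libraries, by a mean of 1.04 percentage points (SD 0.958), the smallest difference being 0.0406. With every cell thinned to 1000 UMIs they were above in 2 of 4, by a mean of 0.0375 (SD 2.25), although thinning also changed which cells were in the class. With UMIs of other class genes allowed, EPCAM cells were above in 4 of 6 libraries, by a mean of 1.10 (SD 2.26). Among cells with at least 3% mitochondrial UMIs they were above in 1 of 2. NKX3-2 cells had medians of 31.2%, 30.2% and 29.6% in the 3 somite libraries, and SOX10 cells 31.7%, 28.5% and 29.6%. Against PDGFRA cells these came to mean differences of 0.594 (SD 2.08, n = 3) and 0.177 percentage points (SD 2.26, n = 3), both smaller than their SD. CDH5 cells reached 20 only in somite HH12, where 22 cells had a median of 25.2% against 29.1% in PDGFRA cells.

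Blood cells stood apart. Their median share was 16.8%, 14.7% and 12.2% in nasal HH15, HH18 and HH22 and 16.0% and 15.0% in somite HH15 and HH20, in each library below every other class. The difference from PDGFRA cells averaged -13.1 percentage points (SD 3.40, n = 5). Hemoglobin UMIs fill much of a red cell's total: as a share of the UMIs outside hemoglobin, the same blood cells had 36.5%, 35.2%, 38.0%, 35.8% and 37.7%, in each library above every other class. Both statements hold of the same cells and differ only in the denominator.

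**Figure D2:**
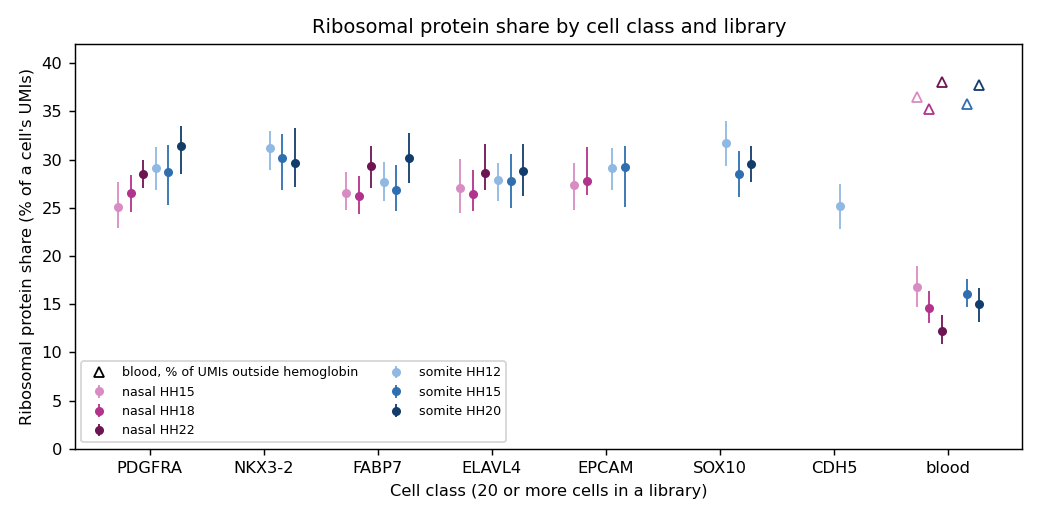
Median share of a cell's UMIs in ribosomal protein genes (percent, vertical axis) by cell class (horizontal axis), 1 point for each library with at least 20 cells of the class and bars over the quartiles of its cells; open triangles give blood as a share of UMIs outside hemoglobin. Blood lies between 12.2% and 16.8%, its triangles between 35.2% and 38.0%, and the other classes overlap between 25.1% and 31.7%.

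Whether single members differed between the locations or moved with stage was tested in PDGFRA mesenchyme, on UMIs summed per library, with edgeR (quasi-likelihood) and p-values adjusted by Benjamini-Hochberg across every tested gene. Each comparison was run on 2 scales. The first used TMM (trimmed mean of M-values) factors from all genes and asks whether a member changed relative to the transcriptome. The second scaled them by the ribosomal total and asks whether a member departed from the rest of the set. The members make up that total, so on the second scale a rise of some goes with a fall of others. Shares of all genes on the second scale also shift with the total itself, so they are a weak background for the members. Members past an adjusted p of 0.05 are called changed on the first and departing on the second. In sums of this kind, fewer cells with a member and fewer of its UMIs per cell cannot be told apart.

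No member was called between nasal and somite mesenchyme. Of 62 members tested, 0 changed, beside 1.37% of all genes, and 0 departed from the set, beside 1.57%. By edgeR 7 members had an unadjusted p under 0.05 on the TMM scale and 2 on the ribosomal scale, and DESeq2 called 0 on either. On the TMM scale the median member was lower by 0.22 in nasal cells (log2), with 4 of 62 members higher. Leaving out nasal HH22 gave 1 call on the TMM scale, and so did testing every gene with a UMI, which also gave 1 departing member. For those fits the share of all genes called is not given.

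RPS27A had the largest departure among the members whose locations did not overlap. Its share of ribosomal UMIs in PDGFRA cells was 0.797%, 0.563% and 0.826% in nasal and 1.43%, 1.05% and 0.933% in somite libraries. Each somite value was above each nasal value, yet the log2 difference of -0.64 ± 0.20 (SE) had an adjusted p of 0.186 in edgeR. RPS19, whose human form is mutated in Diamond-Blackfan anaemia, was at 3.04%, 2.73% and 3.70% in nasal and 2.52%, 2.70% and 2.36% in somite, a difference of 0.32 ± 0.12 (adjusted p = 0.321, edgeR). Without nasal HH22, where RPS19 is high in male cells as described further on, the difference was 0.19 (adjusted p = 0.376, edgeR). RPS6, the target of the S6 kinases, was at 1.37%, 1.484% and 1.46% in nasal and 1.75%, 1.65% and 1.63% in somite, a difference of -0.22 ± 0.12 (adjusted p = 0.486, edgeR). The groups did not overlap for RPS19 or RPS6 either, and these calls also missed the threshold. Female cells made up 54.6%, 61.7% and 36.8% of the sexed nasal cells and 16.1%, 39.98% and 29.5% of the somite cells, and RPS6 differs between the sexes, as described further on. Of the other members lower in female cells, RPL17 differed between the locations by -0.15 ± 0.12, RPL37 by -0.11 ± 0.11 and RPS23 by -0.02 ± 0.10. Each somite share of RPL17 in PDGFRA cells was above each nasal share, while the locations overlapped for RPL37 and RPS23. The part of sex in the RPS6 and RPL17 differences was not tested.

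The other members named throughout had small differences for their errors. RPL10A, of the L1 stalk, differed by -0.07 ± 0.14 (log2, ribosomal scale), RPL38 by 0.00 ± 0.31, RPL22 by -0.04 ± 0.13, RPL39, which lines the exit tunnel, by 0.03 ± 0.14, RPL3 by -0.04 ± 0.16, RPL5 by 0.01 ± 0.17, RPS27L by 0.26 ± 0.24 and RPS4X by 0.07 ± 0.14, with adjusted p-values of 0.703 or more in edgeR. The wide error of RPL38 goes with its spread over stages, from 0.633% in nasal HH18 to 1.82% in nasal HH22.

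No member was called over stage either. On the TMM scale 57 of 62 members had a positive slope within locations, with a median of 0.03 log2 units for each HH stage number, and 0 were called, beside 1.14% of all genes. Departing members also numbered 0, beside 1.08%. Unadjusted p-values under 0.05 were reached by 21 members on the TMM scale and 4 on the ribosomal scale in edgeR, and DESeq2 called 0. RPL38 had a slope of 0.07 ± 0.04 (log2 for each HH stage number, ribosomal scale, adjusted p = 0.362 in edgeR). Without somite HH12, 6 members were called on the TMM scale and 2 departed, and testing every gene with a UMI gave 3 and 1. The share of all genes called in those fits is not given, so these counts cannot be set against it. Stage within a location was 1 library each, so a stage and its library cannot be told apart.

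The widest changes inside the set followed the mitochondrial share of a barcode. Non-blood barcodes fell into a group with under 2% of UMIs in the 13 mitochondrial genes (5111 barcodes) and a group with at least 3% (10379 barcodes), with 397 between. The mitochondrial share alone defined these groups, they were formed after the data had been seen, and they are not groups of the study. The low group made up 35.8%, 31.7%, 20.9%, 26.5%, 43.4% and 25.8% of non-blood cells. It was as deep as the high group or deeper, at medians of 2534.5 to 3753 against 1998 to 3263 UMIs. It was poor in mesenchymal markers: PDGFRA had a UMI in 0.4% to 3.13% of its barcodes by library against 9.15% to 14.8% in the high group, and COL1A2 in 0.839% to 5.79% against 13.4% to 48.8%. FABP7 had a UMI in 74.4% to 90.1% of its barcodes against 34.9% to 51.9%, TUBB3 in 30.8% to 62.5% against 9.81% to 39.8%, and EPCAM in 8.56% to 23.4% against 0.861% to 9.53%. Cell type and mitochondrial share therefore go together in these libraries, and their parts cannot be fully told apart. Whether the low group holds intact cells, nuclei or damaged cells, and whether the mapping of reads to single members such as RPS2 differs between the groups, was not tested.

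The total ribosomal share differed between the 2 groups without a steady direction. Its medians were 26.8%, 25.8%, 31.4%, 26.8%, 26.5% and 30.6% in the low group and 25.8%, 27.0%, 28.7%, 29.1%, 28.6% and 29.6% in the high group. It was higher in the low group in 3 of 6 libraries. The make-up of the set differed as well. With library as a block, 25 of 63 members were higher in the low group on the ribosomal scale, beside 25.7% of all genes, and 23 were lower, beside 53.5%. The median on that scale was 0.0008 for the members, which make up its total, and -0.57 for all genes. That both directions occur among the members is therefore no result. With TMM, 40 were higher, beside 35%, and 7 were lower, beside 46%. Since most genes differed between the groups, it is the size of the departures and their direction in every library that the members' values show, more than their number.

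RPS2 departed furthest. It took 0.0618%, 0.0725%, 0.0976%, 0.0923%, 0.0684% and 0.119% of ribosomal UMIs in the low group. In the high group it took 0.756%, 0.574%, 0.684%, 0.641%, 0.609% and 0.579%. The groups did not overlap, and within a library the high group was 4.88 to 12.2 times the low group. The log2 difference was -2.94 ± 0.13 (SE) with an adjusted p of 4.7e-10 in edgeR.

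RPL3, which sits next to the peptidyl transferase centre, went the other way. Its share was 1.85%, 2.03%, 1.38%, 1.70%, 1.90% and 1.25% in the low group. It was 0.787%, 0.994%, 0.773%, 0.788%, 0.840% and 0.822% in the high group. The low group was 1.52 to 2.34 times the high group, with a log2 difference of 0.998 ± 0.07 (adjusted p = 2.1e-08, edgeR) and no overlap.

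Both genes moved in steps with the mitochondrial share. In nasal HH15, RPS2 went from 0.0505% of ribosomal UMIs in barcodes under 0.5% mitochondrial to 0.0888%, 0.108% and 0.221% in the next bins up to 3%, then to 0.490% between 3% and 4% and to 0.869% at 6% or more. RPL3 over the same bins went from 1.87% to 1.82%, 1.67%, 1.35% and 0.959%, and stood at 0.777% at 6% or more. From the bin of 2% to 3% to that of 3% to 4%, RPS2 went from 0.181% to 0.455% in somite HH15 and from 0.183% to 0.398% in somite HH20. The bins of 2% to 3% held 20 to 95 cells, the fewest in nasal HH22.

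**Figure D3:**
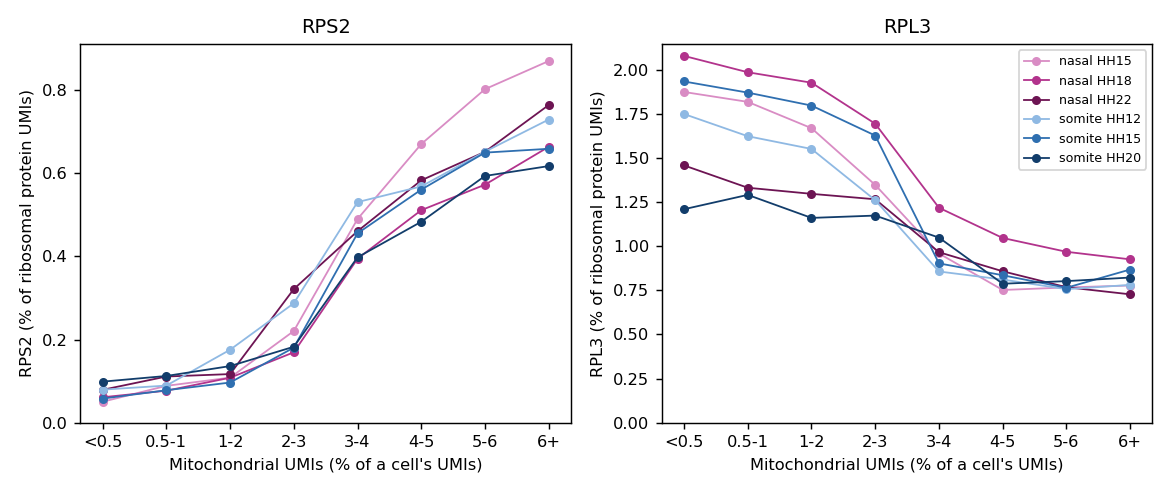
Share of ribosomal UMIs (percent, vertical axes) in RPS2 (left) and RPL3 (right) against bins of a non-blood cell's mitochondrial share (percent, horizontal axis), 1 line for each library. In nasal HH15, RPS2 goes from 0.0505% in the lowest bin to 0.869% in the highest while RPL3 goes from 1.87% to 0.777%.

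Other members took the same 2 directions. Among small-subunit proteins, RPS29 was at 0.704%, 0.573%, 1.85%, 1.29%, 0.682% and 1.72% in the low group and at 1.93%, 1.30%, 3.56%, 2.77%, 1.59% and 3.13% in the high group. The ranges overlapped because RPS29 varied between libraries, but each low group was below the high group of its library, and the log2 difference was -1.13 ± 0.07. RPS21 differed by -1.04 ± 0.06, the scarce RPS28 by -0.92 ± 0.20, and RPS19 by -0.27 ± 0.05. Among large-subunit proteins RPL37 differed by -0.64 ± 0.05, RPL29 by -0.63 ± 0.05, RPL36 by -0.60 ± 0.05, RPL38 by -0.53 ± 0.05 and RPL22 by -0.17 ± 0.05.

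The members higher in the low group included RPL4, which lines the exit tunnel, at 0.83 ± 0.06, RPL7 at 0.74 ± 0.06, RPL8, near the peptidyl transferase centre, at 0.72 ± 0.05, RPL6 at 0.68 ± 0.08 and RPL5 at 0.63 ± 0.06. RPL10A was higher by 0.54 ± 0.05, RPS4X by 0.43 ± 0.05, RPS6 by 0.41 ± 0.05 and RPL11 by 0.33 ± 0.05. RPL39 at 0.05 ± 0.04 and RPS27A at -0.14 ± 0.07 missed the threshold, and RPS27L passed it at -0.25 ± 0.09. Of the 25 members that were higher 16 belonged to the large subunit, and of the 23 that were lower 14 did, so neither direction was limited to 1 subunit.

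The same contrast within FABP7 cells alone gave 23 members higher, beside 29.5% of all genes, and 25 lower, beside 49.3%, of 63 tested on the ribosomal scale. With TMM it was 44 higher, beside 40.3%, and 6 lower, beside 39.8%, but scaling by total UMIs without TMM turned this into 23 higher and 24 lower. RPS2 was at 0.0606%, 0.0717%, 0.0940%, 0.0787%, 0.0638% and 0.104% in the low group of FABP7 cells. It was at 0.661%, 0.514%, 0.653%, 0.593%, 0.535% and 0.531% in the high group. The difference was -2.91 ± 0.10, and that of RPL3 was 0.92 ± 0.07. These cells are a part of the barcodes compared above, from 401 of 799 in the low group of somite HH12 to 1026 of 1386 in nasal HH18. Values close to those over all barcodes therefore add little. Since FABP7 is widespread, FABP7 cells of the 2 groups can still differ in type. Holding the class gene the same therefore does not separate cell type from mitochondrial share. The difference between nasal and somite libraries in this contrast was tested as an interaction: 0 members passed on the ribosomal scale, beside 2.59% of all genes, with 1 at an unadjusted p under 0.05 in edgeR. DESeq2 was not run on the interactions.

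The classes differed in how many of their cells were in the low group. A relation between this share and the ribosomal make-up of a class was not tested. The low group held 30.5% to 66.4% of FABP7 cells by library, 17.9% to 46.9% of ELAVL4 cells and 10.8% to 58.5% of EPCAM cells, but 0% to 4.62% of PDGFRA cells, 2.38% to 4.30% of NKX3-2 cells and 7.95% to 11.8% of SOX10 cells. All class comparisons below share the PDGFRA sums as their reference, so they are not independent of each other.

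Against PDGFRA cells, FABP7 cells had 33 of 63 members higher on the TMM scale, beside 22.1% of all genes, and 3 lower, beside 20.6%. This split depended on scaling: DESeq2 gave 15 higher and 19 lower, and edgeR with DESeq2's size factors gave 14 and 17. The 3 lower members were RPS2, RPS29 and RPS21. Without nasal HH15 the TMM scale gave 23 calls, and with at least 2 UMIs of the class gene it gave 4 and the ribosomal scale 9. Counts from other fits with no share of all genes beside them, here and elsewhere, cannot be set against that share. A fall in such a count may hold for all genes alike. On the ribosomal scale 20 were higher, beside 16%, and 14 lower, beside 29.8%. RPS2 was at 0.293%, 0.306%, 0.462%, 0.340%, 0.193% and 0.297% in FABP7 cells. In PDGFRA cells it was at 0.843%, 0.632%, 0.726%, 0.623%, 0.574% and 0.658%. The classes did not overlap, and the log2 difference was -1.13 ± 0.13 (adjusted p = 9.9e-10, edgeR).

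RPL3 was at 1.47%, 1.495%, 0.995%, 1.26%, 1.62% and 1.06% in FABP7 cells against 0.748%, 0.912%, 0.723%, 0.748%, 0.892% and 0.806% in PDGFRA cells, again without overlap, a difference of 0.69 ± 0.09. RPS29 differed by -0.69 ± 0.08, RPS21 by -0.62 ± 0.08 and RPL38 by -0.30 ± 0.08. RPL4 differed by 0.59 ± 0.08, RPL7 by 0.53 ± 0.07, RPL5 by 0.45 ± 0.08, RPL10A by 0.40 ± 0.07, RPS4X by 0.29 ± 0.07, RPL11 by 0.29 ± 0.06 and RPS6 by 0.25 ± 0.06. RPL22 (-0.09 ± 0.07), RPL39 (0.06 ± 0.06), RPS19 (-0.14 ± 0.06), RPS27A (-0.04 ± 0.07) and RPS27L (-0.12 ± 0.12) missed the threshold.

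When the same comparison was limited to cells with at least 3% mitochondrial UMIs, a choice made after seeing the data, 3 members departed, all lower in FABP7 cells, beside 1.96% of all genes. These were RPS29 at -0.26 ± 0.05, RPS2 at -0.24 ± 0.06 and RPS21 at -0.20 ± 0.05. The RPL3 difference was 0.17 ± 0.06 with an adjusted p of 0.102 in edgeR. On the TMM scale 1 member, RPS29, remained called. The difference of this contrast between nasal and somite was called for 0 members, beside 0.21% of all genes, with 0 at an unadjusted p under 0.05 in edgeR.

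ELAVL4 cells showed 17 members higher, beside 14.3% of all genes, and 3 lower, beside 9.16%, on the TMM scale, where DESeq2 gave 11 and 14. The 3 lower ones were again RPS2, RPS29 and RPS21. Without nasal HH15 the TMM scale gave 10 calls, and with at least 2 UMIs of the class gene 0 members were called on either scale by edgeR, with 1 and 2 at an unadjusted p under 0.05. Departing upward were 15, beside 11.3%, and downward 9, beside 12.4%. RPS2 was at 0.298%, 0.334%, 0.486%, 0.483%, 0.364% and 0.377%, below the PDGFRA cells of every library, a log2 difference of -0.81 ± 0.13. RPS29 differed by -0.52 ± 0.08 and RPS21 by -0.48 ± 0.08, while RPL3 differed by 0.60 ± 0.09, RPL4 by 0.44 ± 0.08 and RPL7 by 0.42 ± 0.08. Of the members named throughout, RPL10A, RPL11, RPL5, RPS4X and RPS6 were also higher and RPL22, RPL38, RPL39, RPS19, RPS27A and RPS27L missed the threshold. In cells with at least 3% mitochondrial UMIs 3 members departed, beside 5.1% of all genes: RPL3 at 0.19 ± 0.06, RPS29 at -0.18 ± 0.05 and RPS21 at -0.18 ± 0.05. The nasal minus somite difference of this contrast was called for 0 members, beside 0.638% of all genes, and by edgeR 3 had an unadjusted p under 0.05 on the ribosomal scale and 26 on the TMM scale.

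EPCAM cells, in 4 libraries, had 17 members higher, beside 4.77% of all genes, and 3 lower, beside 1.73%, on the TMM scale, and thinning each cell to 1000 UMIs turned this into 8 and 9. The 3 lower ones were RPS2, RPS29 and RPS21. Departing upward were 10, beside 3.05%, and downward 6, beside 3.45%. RPS2 was at 0.258% and 0.215% in nasal HH15 and HH18 and at 0.569% and 0.403% in somite HH12 and HH15. These lay below the PDGFRA cells of the same libraries, and furthest below in nasal cells. More EPCAM cells were in the low group there, and the part of this was not tested. The log2 difference was -0.85 ± 0.16. RPS29 differed by -0.57 ± 0.10, RPS21 by -0.55 ± 0.09, RPL3 by 0.60 ± 0.10, RPS3A by 0.49 ± 0.09 and RPL7 by 0.43 ± 0.09. Of the members named throughout, RPL5 and RPL10A also passed, each at 0.41, and RPS6, RPL11, RPS4X, RPL22, RPL38, RPL39, RPS19, RPS27A and RPS27L missed the threshold. In cells with at least 3% mitochondrial UMIs, which left EPCAM sums in somite HH12 and HH15 only, edgeR called 0 members departing, beside 0.423% of all genes, with 5 at an unadjusted p under 0.05. DESeq2 was not run on those cells. Leaving out nasal HH18 left 5 departing and 2 changed members, and leaving out nasal HH15 left 9 and 5. Leaving out somite HH15 left 11 changed members.

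**Figure D4:**
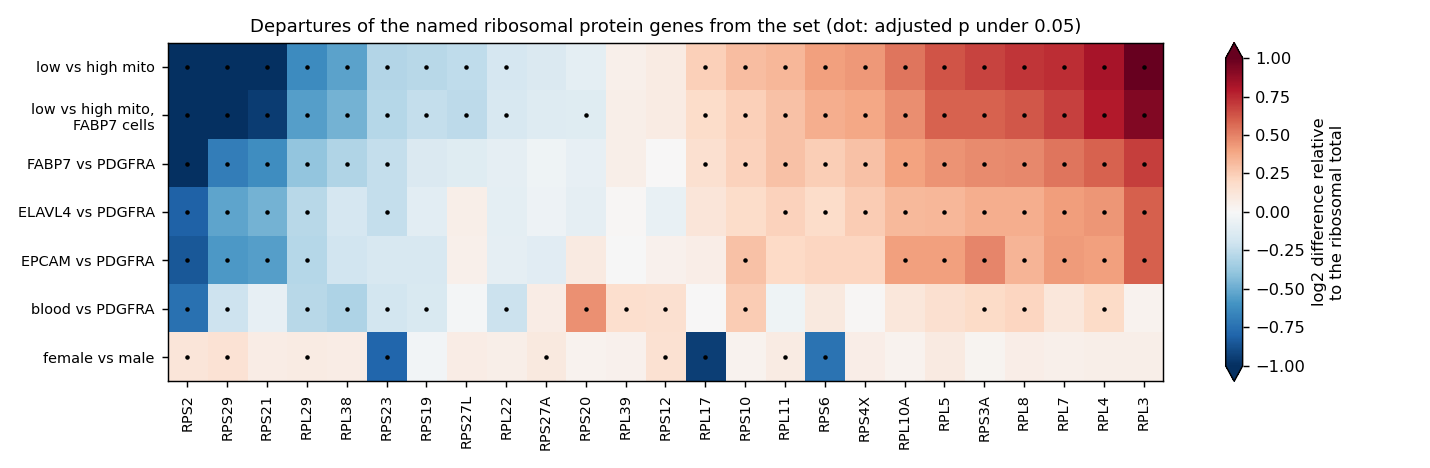
Log2 difference relative to the ribosomal total (colour, capped at 1 in each direction) of the ribosomal protein genes named by rule (columns, ordered by the first row) in 7 comparisons (rows), with a dot where the adjusted p is under 0.05. RPS2, RPS29 and RPS21 at the left are low and RPL4 and RPL3 at the right high in the mitochondrial, FABP7, ELAVL4 and EPCAM rows, while RPS23, RPL17 and RPS6 stand out in the sex row.

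No member was called in NKX3-2 or SOX10 cells, each compared in 3 somite libraries. In NKX3-2 cells 0 of 63 members changed, beside 0.256% of all genes, and 0 departed, beside 0.205%. By edgeR 5 and 0 had an unadjusted p under 0.05, and DESeq2 called 0 on either scale. Relative to the set, the members named throughout lay between -0.23 ± 0.19 for RPS27L and 0.16 ± 0.09 for RPL10A. In SOX10 cells 0 changed, beside 4.22%, and 0 departed, beside 4.23%. By edgeR 13 and 4 had an unadjusted p under 0.05, and DESeq2 called 1 and 0. RPS27L was at 0.34 ± 0.17 and RPL3 at 0.23 ± 0.11 (adjusted p = 0.371 and 0.349, edgeR). In SOX10 cells with at least 3% mitochondrial UMIs, a choice made after seeing the data, 1 of 63 members departed. This was RPS26, at 0.21 ± 0.06 (adjusted p = 0.0288, edgeR), and the share of all genes called in that fit is not given. Without the limit RPS26 was at 0.17 ± 0.08 (adjusted p = 0.344, edgeR).

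CDH5 cells could be set against PDGFRA cells in somite HH12 alone, as 1 sum of 22 cells whose own variation was not measured, so their values are a description. RPL3 was at 1.21% of ribosomal UMIs (Wilson 95% interval 1.06% to 1.39%) against 0.748% (0.699% to 0.801%) in PDGFRA cells. RPL4 was at 1.33% (1.17% to 1.51%) against 0.978% (0.922% to 1.04%). The intervals do not overlap for either gene, and they cover neither animals nor libraries. Although RPL3 is named in every comparison, both genes were also picked by their values in this same sum. Intervals that do not overlap therefore add no support. With the spread borrowed from the other classes the fit counted 5 members on the TMM scale, beside 2.47% of all genes, and 2 on the ribosomal scale, beside 3.51%, and with no library block 0 on either, with 9 and 3 at an unadjusted p under 0.05 in edgeR. Over the libraries left out, the count on the ribosomal scale went from 1, without nasal HH18, somite HH15 or somite HH20, to 7 without nasal HH22. DESeq2 counted 7 and 5. The low group held 31.8% of these 22 CDH5 cells, and its part in the values was not tested.

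In blood cells the scale decided the direction of the whole set. On the TMM scale 62 of 63 members were higher than in PDGFRA cells, beside 16.3% of all genes, and 0 were lower, beside 19.1%, with a median of 0.99 log2 units. With total UMIs and no TMM 0 were higher and 62 lower. On the ribosomal scale, which the hemoglobin UMIs do not enter, 10 members were higher, beside 3.93%, and 12 lower, beside 60.1%. The median there was 0.03 for the members, which make up the total, and -1.16 for all genes, so these shares are no like background. RPS20, in the head of the small subunit, was at 3.38%, 3.22% and 2.89% in nasal and at 3.09% and 2.69% in somite blood. PDGFRA cells of those libraries were at 2.87%, 2.28% and 1.67% and at 2.52% and 2.10%. Blood was higher in each of the 5 libraries, by 0.46 ± 0.07 (adjusted p = 9.1e-07, edgeR), although the ranges overlapped. RPS10 was higher by 0.26 ± 0.08 and RPL8 by 0.22 ± 0.08, and RPL39 by 0.17 ± 0.06. RPS2 differed by -0.74 ± 0.14, RPL38 by -0.31 ± 0.09, RPL29 by -0.28 ± 0.08, RPL22 by -0.22 ± 0.07 and RPS19 by -0.15 ± 0.07. Without nasal HH22 there were 12 departing members, and without somite HH20 there were 13. By library 9.09% to 32.0% of blood cells had under 2% mitochondrial UMIs, against 0% to 4.62% of PDGFRA cells. Both are shares of all UMIs, and hemoglobin took a median of 54.6% to 68.1% of a blood cell's UMIs in the 5 libraries. The mitochondrial share of blood is lowered by this denominator and cannot be set directly against that of PDGFRA cells. A 3% limit on it also depends on a blood cell's hemoglobin. In cells with at least 3%, blood sums remained in nasal HH18, nasal HH22 and somite HH20. There RPS20, RPS10, RPS2, RPL38, RPL29, RPL22 and RPS19 still departed, RPL8 and RPL39 did not, and the lowest difference of any member was -0.38. The part of mitochondrial share in the blood values was not tested.

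Departures also followed sex, in every library. Cells were called female above 30 UMIs of the W-linked gene WPKCI-7 in each 10000 and male at 15 or fewer, which used no ribosomal gene. In birds males carry 2 Z chromosomes and females 1, with incomplete compensation of Z-linked genes, and RPL17, RPS23, RPS6 and RPL37 lie on the chicken Z chromosome. These 4 were the only members lower in female cells on either scale, beside 2.76% of all genes on the TMM scale and 2.55% on the ribosomal scale. RPL17, at the opening of the exit tunnel, took 1.06%, 1.15%, 0.960%, 0.930%, 1.12% and 0.907% of ribosomal UMIs in female cells. It took 2.06%, 2.11%, 1.75%, 1.83%, 2.09% and 1.87% in male cells. The sexes did not overlap, males were 1.82 to 2.06 times females within a library, and the log2 difference was -0.94 ± 0.02 (adjusted p = 1.7e-18, edgeR).

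RPS23, at the decoding centre, was at 1.81%, 1.99%, 2.06%, 1.85%, 1.82% and 2.02% in female cells. It was at 3.29%, 3.58%, 3.51%, 3.15%, 3.20% and 3.24% in male cells, and the difference was -0.79 ± 0.02. RPS6 was at 1.21%, 1.32%, 1.15%, 1.23%, 1.35% and 1.18% in female cells and at 2.14%, 2.26%, 1.77%, 2.04%, 2.28% and 2.01% in male cells, a difference of -0.74 ± 0.02. Neither gene's sexes overlapped. RPL37 differed less, by -0.22 ± 0.02, with female cells at 2.20%, 2.11%, 2.26%, 2.55%, 2.18% and 2.25% and male cells at 2.59%, 2.33%, 2.75%, 2.92%, 2.56% and 2.58%.

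Members higher in female cells were fewer and smaller. On the TMM scale 1 was higher, beside 0.492% of all genes, and on the ribosomal scale 10 were, beside 1.44%, on a scale whose total the Z-linked members lower in females. RPS12 was higher by 0.15 ± 0.02, RPS29 by 0.15 ± 0.03 and RPS2 by 0.12 ± 0.03, while RPL11 was at 0.08 ± 0.02 and RPS27A at 0.10 ± 0.03. RPL3, RPL5, RPL10A, RPL22, RPL38, RPL39, RPS4X and RPS27L lay between 0.03 and 0.09 and missed the threshold. DESeq2 gave 2 members higher on the ribosomal scale, and so did the edgeR fit without nasal HH15.

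RPS19 broke from the set in 1 library, a feature chosen after its values were seen. In male cells of nasal HH22 it took 3.99% of ribosomal UMIs (Wilson 95% interval 3.95% to 4.03%), against 2.66% in female cells of that library (2.62% to 2.71%) and 2.32% to 2.67% in both sexes of the other 5 libraries. The excess was held by some cells. RPS19 exceeded 4% of ribosomal UMIs in 39.9% of the 744 male cells (36.5% to 43.5%) but in 3.70% of the 433 female cells (2.29% to 5.92%), and in at most 10.5% of the cells of any other library and sex. The quartiles of the male cells were 2.43% and 5.49%. The low and the high mitochondrial group were alike in it, at 37.2% and 40.6% of male cells. Over the 6 libraries the difference between the sexes was -0.03 ± 0.06, and without nasal HH22 it was 0.08 (adjusted p = 0.0336, edgeR). The library was made from pooled embryos, and whether the cells came from single embryos was not tested.

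**Figure D5:**
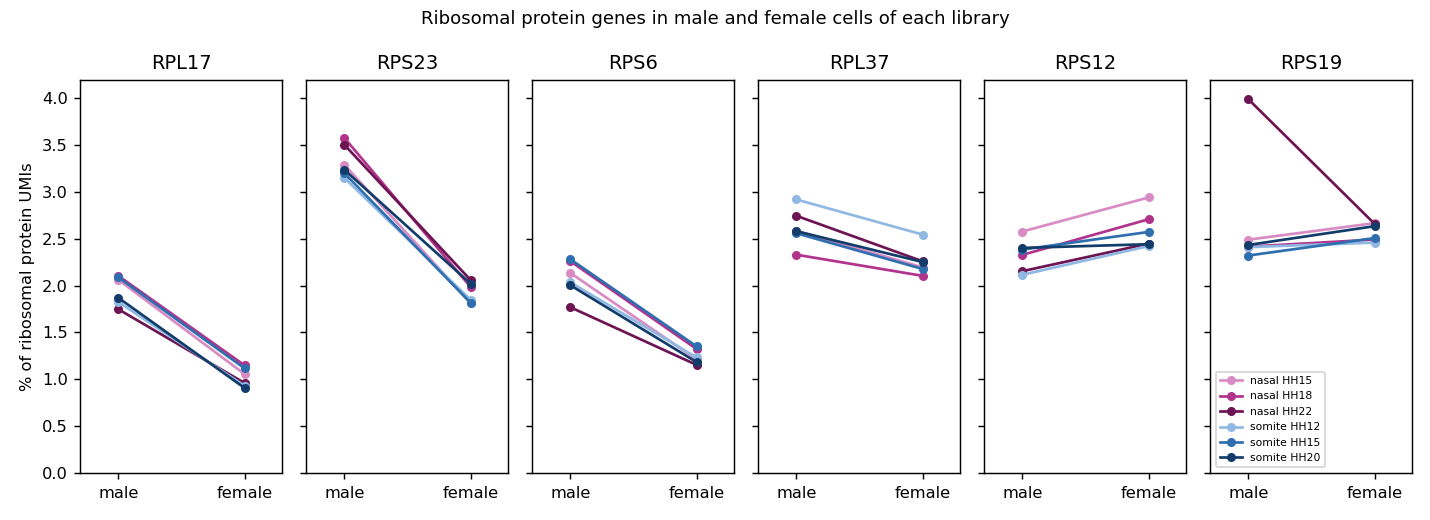
Share of ribosomal UMIs (percent, vertical axis) in male and female cells (horizontal axis) for RPL17, RPS23, RPS6, RPL37, RPS12 and RPS19, 1 line for each library. The lines fall from male to female in every library for the first 4 genes, and for RPS19 nasal HH22 alone is high in male cells, at 3.99% against 2.66% in female cells.

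Genes that work with the ribosome were read from lists beside the set. Of 10 ribosomal proteins or ribosome-bound proteins that the symbol rule leaves out and that were tested, 7 were higher and 0 lower in the low mitochondrial group on the TMM scale, while on the ribosomal scale 3 were higher and 4 lower. The stalk protein RPLP0 was higher by 0.69 ± 0.05 and GNB2L1, the RACK1 scaffold of the small subunit, by 0.68 ± 0.05 on the ribosomal scale, whereas RPL36AL was at -0.57 ± 0.06 and RPL22L1, the paralog of RPL22, at -0.24 ± 0.05. Over all genes tested in that contrast 35% were higher and 46% lower on the TMM scale, and 25.7% and 53.5% on the ribosomal scale. Of 32 translation factors, 24 were higher and 7 lower on the TMM scale, with a median of 0.88 against -0.25 over all genes, and 21 and 8 on the ribosomal scale. Of 32 ribosome biogenesis genes 16 were higher and 11 lower on the TMM scale, and 11 and 13 on the ribosomal scale. Of 70 mitochondrial ribosomal proteins 38 were higher and 21 lower on the TMM scale, and 29 and 28 on the ribosomal scale. In FABP7 cells against PDGFRA cells, where 22.1% of all genes were higher and 20.6% lower on the TMM scale and 16% and 29.8% on the ribosomal scale, the translation factors gave 23 higher and 6 lower on the first and 18 and 8 on the second. The 69 mitochondrial ribosomal proteins tested gave 30 and 11, then 24 and 18. In blood, where 16.3% of all genes were higher and 19.1% lower with TMM and 3.93% and 60.1% relative to the ribosomal total, the scale turned the lists over. The translation factors went from 25 higher and 2 lower to 4 and 12, and the mitochondrial ribosomal proteins from 42 and 1 to 3 and 35.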

How the data were processed

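The authors aligned reads with Cell Ranger to the GRCg6a chicken genome, using their own annotation with elongated 3' ends, and deposited UMI counts per gene and barcode for 6 libraries. The counts are raw whole numbers; members with too few were not tested. Some items are not reported here.

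Barcodes were kept up to 4 times the mean and from 0.2 times the median UMIs, gene-rich barcodes under 0.15 genes per UMI were removed, and barcodes at or under the median UMIs were removed where the mitochondrial fraction was above 0.1 and over 3 median absolute deviations above the median. Doublets were removed by scrublet score in scanpy 1.11.5, at an assumed rate of 0.008 for each 1000 cells. A class needed 1 UMI of its gene and none of another class gene, except that NKX3-2 with PDGFRA counted as NKX3-2, FABP7 with SOX10 as SOX10 and FABP7 with ELAVL4 as ELAVL4. UMIs were summed per library and class with at least 20 cells. The sums were tested in R 4.3.3 with edgeR 4.0.16 (quasi-likelihood, filterByExpr minimum count 10, library as a block between classes), scaled by TMM or by the ribosomal total, at an adjusted p under 0.05 after Benjamini-Hochberg over all genes tested. The scripts were tested on simulated data.

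The labels give no separate cultures or animals as replicates, so p-values measure the spread between libraries, or between libraries after a block. The alternatives were DESeq2 1.42.0, other size factors, no filter, each library left out, thinning to 1000 UMIs, 2 UMIs of the class gene, all barcodes, no hemoglobin genes and no library block. For these alternatives the share of all genes called is not given, so their counts of members stand without it. The mitochondrial and sex comparisons, and the limit to cells with at least 3% mitochondrial UMIs, were added after seeing the data.

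Members named in each comparison were up to 3 departing members per direction with the largest log2 difference, at 50 CPM or more and moving the same way in every library, and always RPS6, RPL5, RPL11, RPS19, RPL38, RPL10A, RPS27A, RPS4X, RPS27L, RPL3, RPL22 and RPL39. Others named were chosen after their values were seen. The members and lists were chosen with earlier results of these data known.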

Additional observations from a re-analysis of the deposited data

How the results depend on the processing

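Location and stage had 0 calls, but testing all genes gave 1 and 3 on the TMM scale and 1 and 1 on the ribosomal scale. Leaving out 1 library gave 0 to 1 and 0 to 6 on the TMM scale, and 0 to 2 for stage on the ribosomal scale. No paired analysis was possible between the locations because the labels pair no nasal with any somite library; between classes the library was the block.

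FABP7 cells had 36 calls on the TMM scale (33 higher, 3 lower). DESeq2 gave 34, its size factors in edgeR 31, thinning 29, 2 UMIs of the class gene 4 and cells with at least 3% mitochondrial UMIs 1, each with more lower than higher, and leaving out 1 library 23 to 40. ELAVL4 cells had 20 calls. DESeq2 gave 25 and the 3% limit 1, both mostly lower, no filter 31, 2 UMIs 0, thinning 2, no library block 12 and leaving out 1 library 10 to 26. EPCAM cells had 20 calls. Thinning gave 17 (8 higher, 9 lower), total UMIs 13, 2 UMIs 1, no block 8, the 3% limit 0 and leaving out 1 library 2 to 20. SOX10 cells had 0 calls, and 1 with no filter, DESeq2, all barcodes, no hemoglobin genes or the 3% limit. CDH5 cells had 5 calls, against 1 with no filter or total UMIs and 0 with no block. Total UMIs turned the 62 calls in blood from higher to lower, and gave 47 calls (23 higher, 24 lower) between the mitochondrial groups of FABP7 cells.

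On the ribosomal scale FABP7 cells had 34 departing members, against 9 with 2 UMIs, 21 with no block and 3 under the 3% limit. ELAVL4 cells had 24, against 0 with 2 UMIs, 2 thinned, 7 with no block and 3 under the limit. EPCAM cells had 16, against 28 in DESeq2, 0 with 2 UMIs, 7 with no block, 0 under the limit and 5 to 23 with 1 library left out. SOX10 cells had 0, against 1 under the limit. CDH5 cells had 2, against 4 with no filter, 5 in DESeq2, 6 with no hemoglobin genes, 0 with no block and 1 to 7 with 1 library left out. Blood had 22, against 2 with 2 UMIs, 9 thinned, 6 with no block and 12 to 23 with 1 library left out. The sexes had 14, against 6 in DESeq2, 5 with TMM over the members and 6 to 15 with 1 library left out. RPS19 between the sexes (-0.03, log2) ranged from -0.0586 to 0.0795 with 1 library left out, the latter without nasal HH22. The 0 counts for 2 UMIs left 1 (ELAVL4, TMM), 2 (ELAVL4, ribosomal) and 13 members (EPCAM, ribosomal) at an unadjusted p under 0.05 in edgeR. CDH5 gave no value thinned, with 2 UMIs, under the limit or without somite HH12, and location and stage gave none with 2 UMIs.

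The ribosomal share became 30.5%, 29.9%, 28.2%, 32.4%, 31.4% and 32.2% with the ribosomal proteins the symbol rule leaves out. Over all barcodes nasal HH22, somite HH15 and somite HH20 stood at 22.5%, 26.8% and 26.0%, and without hemoglobin genes nasal HH22 and somite HH20 at 31.0% and 30.8%. The cause of these changes was not tested. With 1 library per stage and few cells in the EPCAM, SOX10 and CDH5 classes, a count of 0 does not show that members were alike.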
